A study of Homo sapiens with 24 samples.

Results

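Osteoblast lineage genes are 9 genes that mark or steer the cells that lay down bone: *RUNX2*, *SP7*, *DLX5* and *MSX2*, which encode transcription factors, *ALPL*, an enzyme of mineralization, the matrix genes *SPP1*, *IBSP* and *SPARC*, and *TNFRSF11B*. The 9 were taken by name from the 57820 genes counted in each of 24 RNA sequencing libraries. No threshold on measured values set the choice, but it was made with earlier results of these data known. Each of 8 groups held 3 biological replicates of U2OS cells, a human osteosarcoma line. Wild-type (WT) and ID3-knockout (KO) AID-DIvA cells, U2OS derivatives that carry the AsiSI restriction enzyme under control of 4-hydroxytamoxifen, were either untreated or exposed for 24 h to mocetinostat, which inhibits class I histone deacetylases, followed by 24 h in medium without the drug. WT and ID3-KO cells labelled U2OS were either untreated or given mocetinostat, and the methods describe collection after 24 h of drug as the stage before recovery. That these libraries belong to that stage was inferred, their library names also carry the word DivA, and the number of knockout clones is not given in the sources used here. In all 12 AID-DIvA libraries the treatment entry of the labels contradicts the title, and the titles were followed, so that every treatment direction in those cells would invert if the entries were right. The AID-DIvA groups called untreated here would then be treated ones.

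In bone formation RUNX2 commits mesenchymal precursors to the osteoblast lineage and SP7, also called osterix, acts downstream of it. MSX2 and DLX5 are homeodomain factors downstream of bone morphogenetic protein (BMP) signalling. ID3 belongs to the inhibitor of DNA binding proteins, which hold the E proteins, partners of many basic helix-loop-helix factors, away from E-box motifs. Osteosarcoma cells often retain part of the osteoblast programme. In bulk RNA, fewer cells of a type and less RNA per cell cannot be told apart. The positions of 8 of the 9 members in hg19, the build of the files, are chr1:21835858-21904905 for *ALPL*, chr4:88720733-88733074 for *IBSP*, chr4:88896819-88904562 for *SPP1*, chr5:151040657-151066726 for *SPARC*, chr5:174151536-174157896 for *MSX2*, chr6:45295894-45632086 for *RUNX2*, chr7:96649704-96654409 for *DLX5* and chr12:53720362-53739099 for *SP7*.

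The promoters of 4 members with large changes after mocetinostat are shown first. RUNX and E-box letters can be compared between *SPP1*, *IBSP* and *MSX2*, which rose in U2OS, and *RUNX2*, which fell there. RefSeq promoter entries (GRCh38.p14) were used for 6 of the 9 members, in 9 windows of 300 bases, from 250 before to 50 after a gene start. The promoter of *TNFRSF11B* was not examined. The lines below give the 250 bases before the start on the plus strand, 5′ to 3′, for *RUNX2* at chr6:45328080-45328329, *SPP1* at chr4:87975464-87975713, *IBSP* at chr4:87799304-87799553 and *MSX2* at chr5:174724332-174724581. Capitals mark the RUNX core ACCACA, or its reverse complement TGTGGT, and the E-box CANNTG, which reads the same way on both strands.
RUNX2 upstream promoter: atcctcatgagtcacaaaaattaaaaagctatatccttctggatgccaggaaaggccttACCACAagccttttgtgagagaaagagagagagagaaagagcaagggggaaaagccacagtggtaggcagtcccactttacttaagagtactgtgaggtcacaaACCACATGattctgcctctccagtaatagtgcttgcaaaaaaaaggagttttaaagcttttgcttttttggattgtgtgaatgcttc
SPP1: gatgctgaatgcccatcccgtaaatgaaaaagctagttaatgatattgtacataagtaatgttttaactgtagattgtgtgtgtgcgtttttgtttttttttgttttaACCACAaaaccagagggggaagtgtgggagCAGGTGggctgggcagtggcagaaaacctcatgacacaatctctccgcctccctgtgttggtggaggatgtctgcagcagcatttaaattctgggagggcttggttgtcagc
IBSP: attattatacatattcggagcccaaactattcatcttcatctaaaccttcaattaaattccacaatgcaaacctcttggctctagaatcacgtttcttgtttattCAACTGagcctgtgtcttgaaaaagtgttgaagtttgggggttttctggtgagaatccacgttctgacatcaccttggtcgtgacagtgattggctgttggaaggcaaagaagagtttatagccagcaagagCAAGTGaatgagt
MSX2: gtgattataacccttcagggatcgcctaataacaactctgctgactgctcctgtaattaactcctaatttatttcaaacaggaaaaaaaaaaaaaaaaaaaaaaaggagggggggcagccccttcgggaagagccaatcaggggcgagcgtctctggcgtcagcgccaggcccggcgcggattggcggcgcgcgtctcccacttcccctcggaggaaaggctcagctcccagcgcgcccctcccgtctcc

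Over the whole 300 bases, the upstream *RUNX2* promoter held 4 RUNX cores, beginning 191 and 87 bases before the start and 16 and 24 bases after it. The core 87 bases before the start overlaps an E-box, and so does the core 24 bases after it. The *SPP1* promoter held 1 RUNX core, 142 bases before the start, and 1 E-box, 112 bases before it. The *IBSP* promoter held no RUNX core and 2 E-boxes, and the *MSX2* promoter held neither. Among the other windows, the downstream *RUNX2* promoter held 3 E-boxes, *SPARC* held 1, the 3 *ALPL* promoters held 3, 0 and 2, and none held a RUNX core. Of 35116 human promoter windows, 13.1% held a RUNX core and 68.7% an E-box, while 5 windows held 4 or more RUNX cores. The upstream *RUNX2* window was printed because it held RUNX cores, and the downstream one, without a core, was not. The letters are a description of these windows and show no binding.

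The gene with the highest level per length was *SPARC*, which encodes osteonectin, a collagen-binding matrix protein, at group means of 571 to 1010.7 TPM, the deposited abundance scaled for gene length and library size. *SPP1*, encoding the secreted phosphoprotein osteopontin, followed at 23.8 to 91.8 TPM. *MSX2* lay between 4.35 and 30.7 TPM, *RUNX2* between 5.29 and 17.4 TPM, *TNFRSF11B* between 4.51 and 14.0 TPM and *ALPL* between 0.690 and 5.99 TPM. *IBSP*, encoding bone sialoprotein, did not exceed a group mean of 0.963 TPM, and *SP7* did not exceed 0.0542 TPM. Of the defining osteoblast markers *SP7* was thus close to absent, and *BGLAP*, encoding osteocalcin, lay at group means of 0.299 to 0.553 CPM, the count scaled to library size. *COL1A1*, encoding the collagen I alpha 1 chain, lay at group means of 1069.8 to 2350.5 CPM, whereas those of *COL1A2*, its partner chain, spanned 0.138 to 1.24 CPM. The libraries held part of the osteoblast set at high level, and the name osteoblast lineage is used here for the gene list and not as a statement of cell type.

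AID-DIvA libraries held 37878751 to 76906266 counts each and U2OS libraries 46285533 to 70692114. The first replicate of untreated WT U2OS stood apart, with a chi-square per gene of 103 and 91.1 against the other replicates, compared with 4.32 between those replicates and 2.79 to 27.3 within the other groups. The main results that rest on this group are therefore also given without that library. *ID3* itself averaged 50.9 ± 1.94 CPM in untreated WT and 34.8 ± 3.41 CPM in untreated KO AID-DIvA cells (SD, n = 3), and 61.7 ± 15.6 against 30.4 ± 1.56 CPM in U2OS. The knockout lines thus kept *ID3* reads, and the difference was -0.56 in AID-DIvA and -1.03 in U2OS on the log2 scale (adjusted p = 8.38e-06 and 0.00651, edgeR), with -0.80 in U2OS without the library that stands apart. Count levels below are CPM after TMM scaling over all 24 libraries, fold changes come from edgeR's quasi-likelihood test over all genes, and a gene was called at an adjusted p under 0.05 with a log2 fold change above 1 or below -1.

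In WT U2OS cells, mocetinostat was followed by lower *RUNX2* and *TNFRSF11B* and by higher *MSX2*, *SPP1* and *IBSP*. Of the 8 members tested, 6 were called, against 18.6% of all genes tested. Of these 3 were higher and 3 lower, against 13.6% and 5.06% of all genes. These include *IBSP*, which passed the low-count filter only through its treated libraries and so had to differ, and *DLX5*, whose reads came from the opposite strand. The comparison addressed how the drug shifts expression before recovery, and by adjusted p alone all 8 passed, against 48.9% of all genes.

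*RUNX2*, the commitment factor of the lineage, measured 36.7, 44.0 and 47.5 CPM in untreated WT U2OS and 15.6, 15.5 and 13.2 CPM after mocetinostat. The groups did not overlap, and *RUNX2* fell 2.89-fold (log2 fold change -1.53 ± 0.12 SE, adjusted p = 3.82e-05, and -1.64 without the first untreated replicate). In KO U2OS, the 3 untreated libraries gave 24.7, 23.6 and 25.5 CPM and the 3 treated ones 11.8, 12.7 and 13.0 CPM. That 1.96-fold difference had a log2 value of -0.97 ± 0.06 and an adjusted p of 1.75e-12, just short of the fold threshold, which it passed at -1.01 without the second untreated or the third treated KO replicate.

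*MSX2*, a homeodomain factor of skull and limb bone, gave the largest log2 fold change among the 6 members with a mean above 1 CPM in U2OS. It measured 3.81, 2.85 and 3.15 CPM in untreated WT and 17.8, 19.9 and 20.5 CPM after mocetinostat. The treated libraries all lay far above the untreated ones, a 5.92-fold rise (log2 fold change 2.57 ± 0.13, adjusted p = 5.64e-06, and 2.70 without the first untreated replicate). In KO cells it rose 4.49-fold, from 3.67, 3.60 and 3.69 CPM to 17.7, 15.5 and 15.9 CPM (2.17 ± 0.08, adjusted p = 1.37e-16). The means of *MSX2* in the 4 untreated groups lay between 3.17 and 3.87 CPM.

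*SPP1* rose 2.03-fold in WT and 3.30-fold in KO U2OS cells. Its libraries read 28.4, 27.8 and 30.1 CPM in untreated WT and 55.7, 58.7 and 61.2 CPM after mocetinostat, a change of 1.02 ± 0.07 on the log2 scale (adjusted p = 2.54e-05). This value sat at the fold threshold and lost its call at 0.99 without the second untreated replicate and 0.995 without the third treated one, while it stayed 1.02 without the first untreated replicate. In KO cells *SPP1* measured 14.9, 17.5 and 16.6 CPM untreated and 50.7, 56.4 and 54.9 CPM treated (1.72 ± 0.06, adjusted p = 6.84e-17).

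*IBSP*, a neighbour of *SPP1* in the cluster of mineralized-matrix genes on chromosome 4, was close to silent without drug. Its raw counts were 0, 0 and 2 in untreated WT U2OS and 12, 13 and 28 after mocetinostat, and 0, 0 and 3 against 24, 15 and 12 in KO. Scaled to library size, the summed counts were 28.1 times higher in treated WT cells, with a 95% interval of 7.41 to 238 that covers counting error only. In KO cells the ratio was 16.8 (5.42 to 83.9). The gene passed the low-count filter only through its treated libraries, so its calls in WT and KO (adjusted p = 0.00352 and 4.58e-05) were made on a gene selected for being high there.

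*TNFRSF11B* encodes osteoprotegerin, the decoy receptor that binds the osteoclast-activating ligand RANKL. It measured 9.88, 13.3 and 12.4 CPM in untreated WT U2OS and 5.89, 6.02 and 4.88 CPM after mocetinostat, a fall of 2.12-fold (-1.09 ± 0.14, adjusted p = 0.000485, and -1.21 without the first untreated replicate). Without the third treated replicate *TNFRSF11B* (-0.99), *SPP1* and *DLX5* lost their calls, which left 3, against 16.7% of all genes called. In KO cells the value was 5.60, 6.06 and 6.22 CPM untreated and 7.81, 6.41 and 6.93 CPM treated, a log2 difference of 0.25 ± 0.09 (adjusted p = 0.0184). *TNFSF11*, which encodes RANKL itself, had 0 to 3 reads per group.

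*ALPL* and *SPARC* were lower after mocetinostat in both genotypes without passing the fold threshold. *ALPL*, the tissue-nonspecific alkaline phosphatase that frees phosphate for mineral, read 4.94, 3.60 and 3.62 CPM in untreated WT U2OS and 2.34, 2.24 and 2.43 CPM treated (-0.80 ± 0.16, adjusted p = 0.00448, and -0.63 without the first untreated replicate). In KO cells it read 0.966, 1.27 and 1.44 CPM untreated and 0.957, 0.751 and 0.826 CPM treated (-0.54 ± 0.20, adjusted p = 0.019). *SPARC* differed by -0.66 ± 0.07 in WT, from a mean of 1470.1 ± 54.6 to 930.1 ± 30.0 CPM, and by -0.56 ± 0.04 in KO (adjusted p = 0.000222 and 4.29e-11), with -0.63 in WT without the first untreated replicate. In KO U2OS 3 of 7 members tested were called, all higher and with *IBSP* again among them through the filter, against 14.6% of all genes called higher and 20.3% called in either direction, and all 7 passed the adjusted p alone, against 69.9%.

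**Figure D1:**
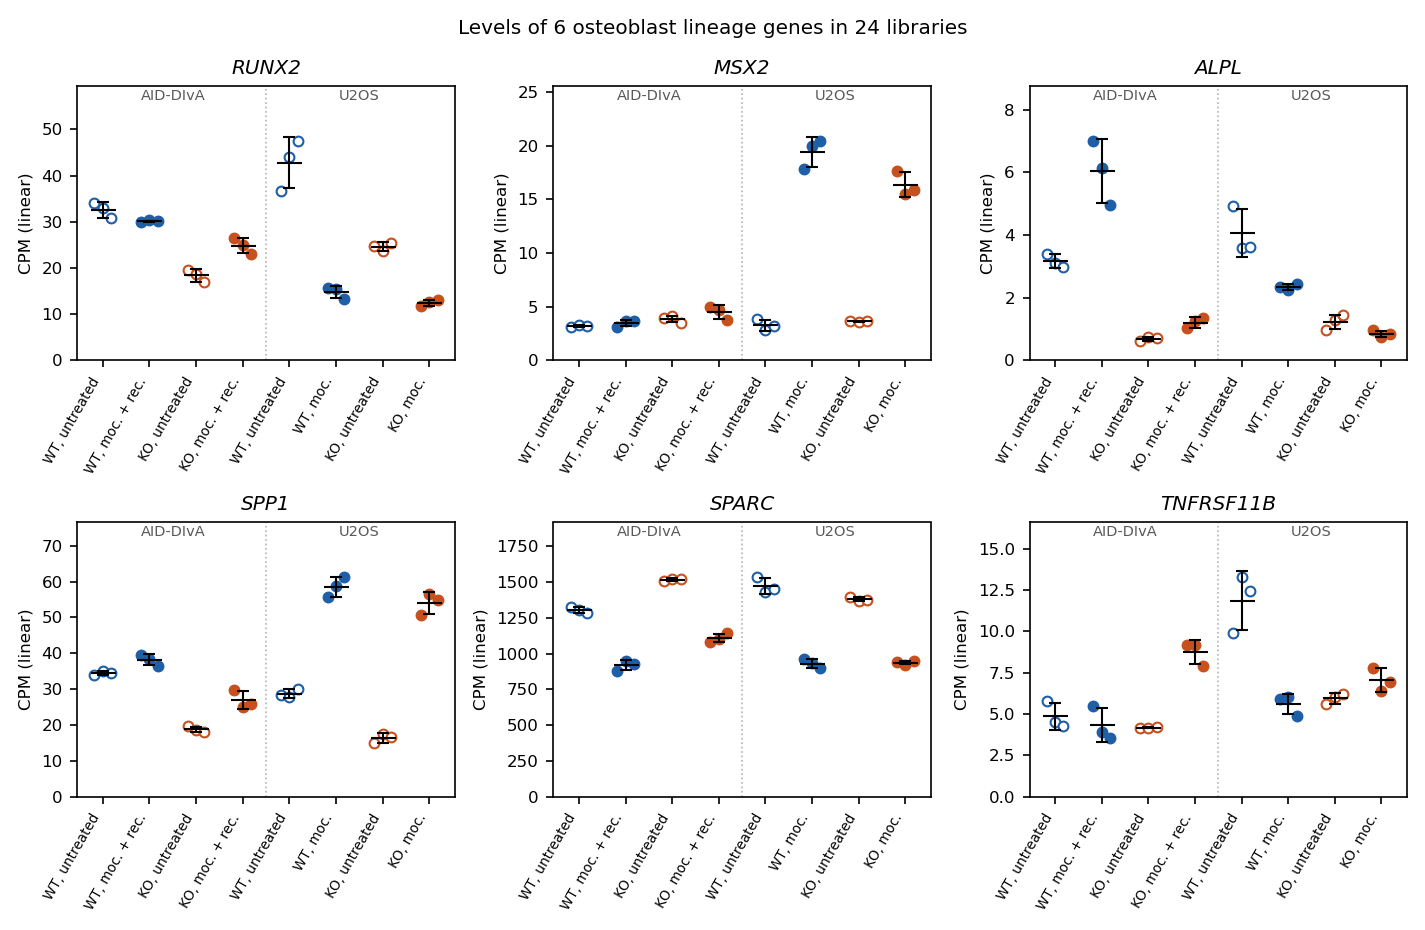
Levels of 6 members in CPM on linear axes from 0. Each point is 1 library, open for untreated and filled for mocetinostat (moc.) with or without recovery (rec.), blue for WT and orange for KO, and the black bar is the mean ± SD of 3 libraries. *MSX2* and *SPP1* are highest in treated U2OS, *RUNX2* is lowest there, and *ALPL* is lower in KO than in WT of the same line and treatment.

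After drug and recovery in WT AID-DIvA cells, *ALPL* was 1.94-fold higher and *SPARC* 1.40-fold lower than without treatment, while *RUNX2*, *MSX2* and *TNFRSF11B* overlapped or nearly overlapped their untreated values. None of the 7 members tested was called, against 7.38% of all genes, and 3 passed the adjusted p alone, against 46.9% of all genes. *ALPL* measured 3.41, 3.11 and 2.98 CPM untreated and 7.01, 6.13 and 4.97 CPM after drug and recovery. The groups did not overlap, and the log2 fold change of 0.95 ± 0.12 (adjusted p = 3.06e-05) passed the fold threshold at 1.08 without the third recovered replicate and at 1.004 without the first untreated one.

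*SPARC* went in WT AID-DIvA cells from 1304.7 ± 22.2 CPM untreated to 918 ± 36.4 CPM recovered (-0.48 ± 0.04, adjusted p = 9.03e-07). *SPP1* read 34.1, 35.1 and 34.5 CPM untreated and 39.5, 38.5 and 36.5 CPM recovered (0.16 ± 0.05, adjusted p = 0.017). *RUNX2* read 34.0, 32.9 and 30.7 against 30.0, 30.3 and 30.1 CPM, a log2 difference of -0.09 ± 0.05 (adjusted p = 0.189). *MSX2* and *TNFRSF11B* differed by 0.15 ± 0.11 and -0.14 ± 0.16 (adjusted p = 0.255 and 0.509), and their groups overlapped.

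In KO AID-DIvA cells *TNFRSF11B* was the member called after recovery, 1 of 7 tested, against 4.9% of all genes called higher and 7.46% in either direction, and 5 passed the adjusted p alone, against 40.1% of all genes. Its untreated libraries were tightly grouped at 4.17, 4.14 and 4.22 CPM and its recovered libraries read 9.19, 9.18 and 7.89 CPM. The groups did not overlap, and *TNFRSF11B* rose 2.10-fold (1.07 ± 0.09, adjusted p = 1.72e-05). *RUNX2* measured 19.6, 18.6 and 16.9 CPM untreated and 26.5, 25.0 and 23.1 CPM recovered (0.43 ± 0.08, adjusted p = 0.00184), without passing the fold threshold.

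*ALPL* was higher in recovered KO cells by 0.83 ± 0.17 and *SPP1* by 0.52 ± 0.08 on the log2 scale (adjusted p = 0.00374 and 0.000612). *SPARC* differed by -0.45 ± 0.05 (adjusted p = 0.00015). *MSX2* read 3.95, 4.13 and 3.52 CPM untreated and 4.98, 4.73 and 3.72 CPM recovered, groups that overlapped (0.21 ± 0.12, adjusted p = 0.19). *IBSP* counts were 0, 0 and 0 untreated and 4, 3 and 5 recovered in WT AID-DIvA, at least 4.51-fold higher with 3 counts over the group as the floor. In KO they were 0, 1 and 0 against 6, 5 and 6, a ratio of 21.1 (95% counting interval 3.30 to 880).

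**Figure D2:**
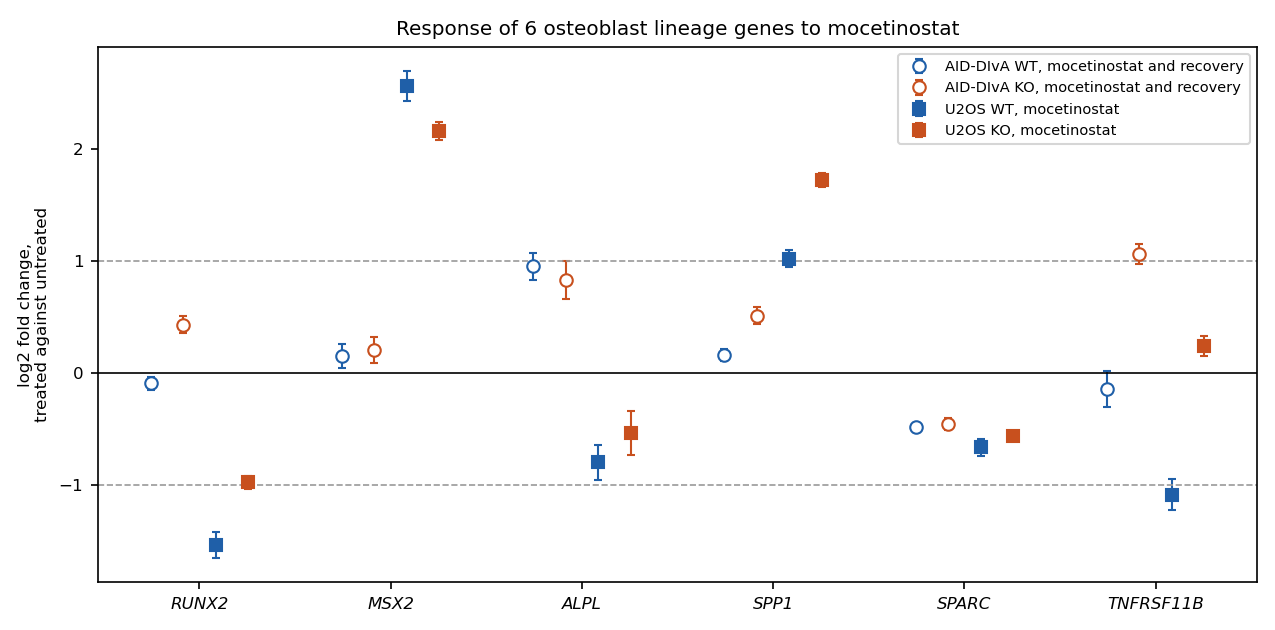
The y axis is the log2 fold change of treated against untreated cells for 6 members, with error bars of ± 1 SE, open circles for AID-DIvA after drug and recovery and filled squares for U2OS after drug, in blue for WT and orange for KO. Dashed lines mark the fold threshold at 1 and -1. *MSX2* reaches 2.57 and 2.17 in U2OS but 0.15 and 0.21 in AID-DIvA, and *TNFRSF11B* lies higher in KO than in WT in both.

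The response of *RUNX2*, *SPP1* and *TNFRSF11B* to mocetinostat was compared between genotypes with an interaction term, the KO response minus the WT response, called at an adjusted p under 0.05. In U2OS 3 of 8 members were called, against 2.15% of all genes, and in AID-DIvA 2 of 7, against 1.21%. All these differences were higher in KO, against 1.1% of all genes in U2OS and 0.762% in AID-DIvA. *TNFRSF11B* differed most, by 1.34 ± 0.17 in U2OS (adjusted p = 0.000678, and 1.45 without the first untreated WT replicate) and by 1.21 ± 0.20 in AID-DIvA (adjusted p = 0.00549). The KO estimates of its change were positive in both lines, at 0.25 and 1.07, and the WT estimates negative, at -1.09 and -0.14.

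*SPP1* rose more in KO than in WT U2OS, by 0.71 ± 0.10 on the log2 scale (adjusted p = 0.00167, and 0.71 without that replicate), from a lower untreated level to a treated level whose libraries overlapped those of WT. In AID-DIvA the *SPP1* interaction was 0.36 ± 0.09 (adjusted p = 0.0732, and 0.0211 with DESeq2). The *RUNX2* interaction was 0.53 ± 0.09 in AID-DIvA (adjusted p = 0.00934). In U2OS it was 0.56 ± 0.13 (adjusted p = 0.0451), a call that was lost on leaving out any library but the first untreated WT replicate, without which it was 0.66 (adjusted p = 1.73e-06). For *MSX2* the interaction in U2OS was -0.40 ± 0.15 (adjusted p = 0.24), and it was called at -0.53 without that replicate (adjusted p = 0.00445). The *ALPL* and *SPARC* interactions lay between -0.11 and 0.27 in both lines, with SEs of up to 0.25.

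Without drug, KO cells differed from WT in the same direction under both cell line labels for *ALPL*, *SPP1* and *RUNX2*. The number of knockout clones is not given, so the p-values may not cover a spread between clones. For AID-DIvA, untreated follows the titles, and these would be treated cells if the treatment entries were right. *ALPL* was called in each line, as 1 of 7 members tested, against 4.58% of all genes in AID-DIvA and 4.26% in U2OS, with 2.3% and 2.84% of all genes called lower. In AID-DIvA it measured 3.41, 3.11 and 2.98 CPM in WT and 0.616, 0.736 and 0.697 CPM in KO, 4.64-fold lower (-2.21 ± 0.13, adjusted p = 3.22e-09). In U2OS the values were 4.94, 3.60 and 3.62 against 0.966, 1.27 and 1.44 CPM, 3.32-fold lower (-1.73 ± 0.20, adjusted p = 0.00159, and -1.55 without the first WT replicate).

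*RUNX2* was 1.79-fold lower in untreated KO AID-DIvA cells (-0.84 ± 0.06, adjusted p = 2.62e-08) and 1.75-fold lower in U2OS (-0.81 ± 0.10, adjusted p = 0.0024, and -0.90 without the first WT replicate). *SPP1* differed by -0.89 ± 0.05 in AID-DIvA and by -0.82 ± 0.09 in U2OS (adjusted p = 2.29e-09 and 0.000931), and the U2OS value stayed -0.82 without that replicate. For neither gene did the groups overlap, and neither passed the fold threshold. By adjusted p alone 5 members in AID-DIvA and 4 in U2OS passed, against 36.7% and 15.2% of all genes.

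*TNFRSF11B* read 9.88, 13.3 and 12.4 CPM in untreated WT and 5.60, 6.06 and 6.22 CPM in untreated KO U2OS, a log2 difference of -0.999 ± 0.13 just short of the threshold (adjusted p = 0.00219), which was called at -1.11, -1.01 and -1.03 without the first WT, the second KO or the third KO replicate. In AID-DIvA the difference was -0.23 ± 0.11 (adjusted p = 0.116). *SPARC* was higher in KO by 0.20 ± 0.04 in AID-DIvA (adjusted p = 0.000793) and differed by -0.10 ± 0.07 in U2OS (adjusted p = 0.381, and -0.06 without the first WT replicate). *MSX2* differed by 0.28 ± 0.09 and 0.15 ± 0.14 (adjusted p = 0.0295 and 0.506).

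**Figure D3:**
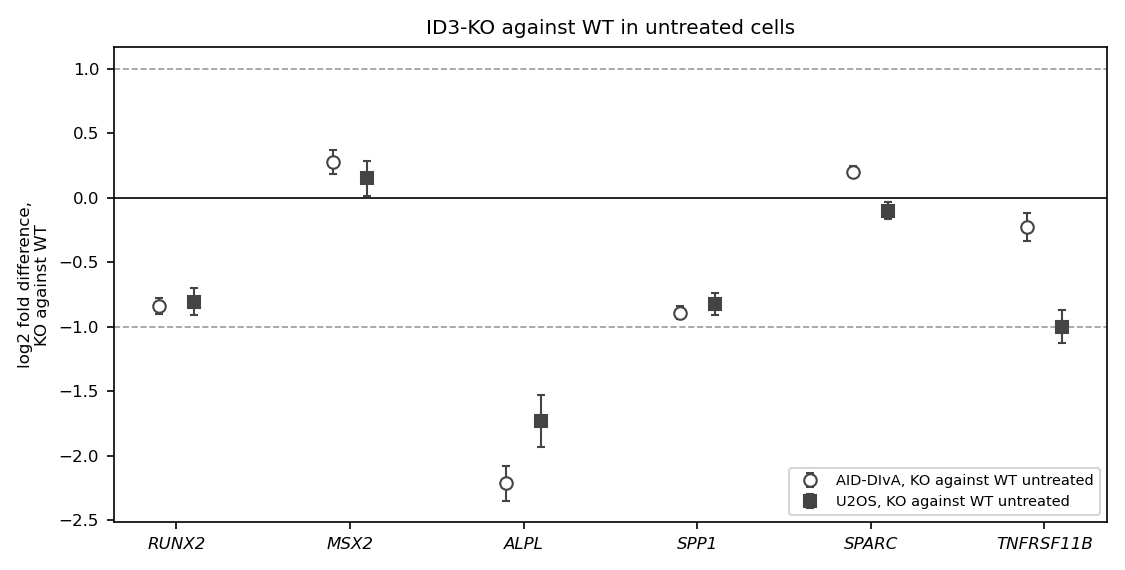
The y axis is the log2 fold difference of untreated KO against untreated WT cells for 6 members, with error bars of ± 1 SE, open circles for AID-DIvA and filled squares for U2OS. Dashed lines mark the fold threshold at 1 and -1, and *ALPL* alone lies beyond -1 in both lines, at -2.21 and -1.73.

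The change after drug and recovery in AID-DIvA was set against the change after drug alone in U2OS, with a term for the difference of the changes called at an adjusted p under 0.05. The stage and the cell line label change together here, so that the effect of recovery and that of the line cannot be told apart. In WT 7 of 8 members were called, against 45.4% of all genes, and in KO 5 of 8, against 46% of all genes, so that many genes differed in this way. *MSX2* differed by -2.41 ± 0.16 in WT and by -1.95 ± 0.16 in KO, and *SPP1* by -0.86 ± 0.10 and -1.20 ± 0.11, the change in AID-DIvA being the smaller each time. Without the first untreated WT U2OS replicate the WT differences were -2.54 for *MSX2*, -0.84 for *SPP1*, 1.55 for *RUNX2*, 1.59 for *ALPL* and 1.08 for *TNFRSF11B*, all still called.

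*ALPL* was higher after recovery in AID-DIvA and lower after drug in U2OS, with a difference of 1.75 ± 0.20 in WT and 1.37 ± 0.27 in KO (adjusted p = 7.59e-08 and 0.000156). *RUNX2* differed by 1.44 ± 0.12 and 1.41 ± 0.12, and *TNFRSF11B* by 0.95 ± 0.20 and 0.83 ± 0.19. *SPARC*, which was lower in all 4 comparisons, differed by 0.18 ± 0.07 in WT (adjusted p = 0.0407) and by 0.11 ± 0.07 in KO (adjusted p = 0.214). The WT call of *SPARC* was lost in 7 of 24 fits that left out 1 library, with adjusted p of up to 0.126, and so was that of *DLX5* (1.43 ± 0.55, adjusted p = 0.0339), with up to 0.0886.

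The levels of the members put the 8 groups in different orders. *RUNX2* was highest in untreated WT U2OS at 42.7 ± 5.49 CPM and lowest in treated KO U2OS at 12.5 ± 0.634 CPM, and only recovered KO AID-DIvA (24.8 ± 1.69) and untreated KO U2OS (24.6 ± 0.934) overlapped as neighbours in that order. *ALPL* was highest in recovered WT AID-DIvA at 6.04 ± 1.02 CPM and lowest in untreated KO AID-DIvA at 0.683 ± 0.0615 CPM. All 4 WT groups lay above all 4 KO groups for *ALPL*. For *MSX2* the 2 treated U2OS groups stood above the other 6, which overlapped each neighbour in a range of 3.17 to 4.48 CPM. *SPP1* was highest in treated WT and KO U2OS, which overlapped at 58.5 ± 2.76 and 54.0 ± 2.96 CPM, and lowest in untreated KO U2OS at 16.3 ± 1.33 CPM. *SPARC* ran from 1514.7 ± 9.78 CPM in untreated KO AID-DIvA, which overlapped untreated WT U2OS, down to 918 ± 36.4 CPM in recovered WT AID-DIvA, which overlapped treated WT U2OS. For *TNFRSF11B* the 5 lowest groups, from 4.18 to 5.96 CPM, overlapped each neighbour.

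*DLX5*, the homeodomain factor that acts beside MSX2, and *SP7* were almost without reads of their own strand. *DLX5* drew 302 reads over the 24 libraries, of which 96.4% came from the opposite strand in these stranded libraries. Its own strand held 11 reads in all, with 17 libraries at 0 and none above 3. The call of lower *DLX5* in mocetinostat-treated WT U2OS (-1.52 ± 0.44, adjusted p = 0.0229) went from 64 to 21 opposite-strand reads and from 4 to 3 sense reads, summed over 3 libraries. This call was lost in 5 of 6 fits that left out 1 library and held at -1.75 without the first untreated replicate. No annotated gene of the files overlaps *DLX5*, and with sense reads alone the gene did not pass the filter.

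*SP7* drew 0 to 6 reads per library and 38 in all, with 7 libraries at 0, and passed the filter in no comparison. Its summed counts were 7 untreated and 10 with mocetinostat in WT U2OS, a ratio of 1.52 whose 95% counting interval of 0.521 to 4.70 includes no change. In the other 3 comparisons the intervals also included 1, so that no difference in *SP7* was detectable at this depth. Of the *IBSP* reads, by contrast, 136 of 139 came from the sense strand.

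**Figure D4:**
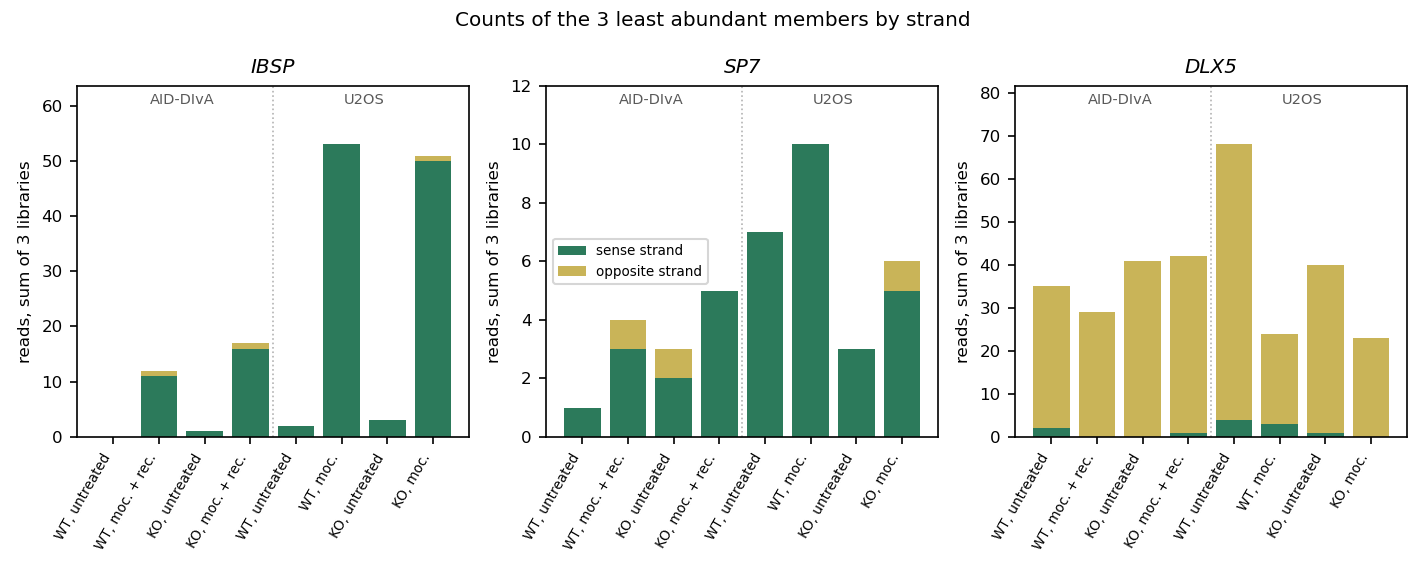
The y axis is the number of reads summed over the 3 libraries of a group for *IBSP*, *SP7* and *DLX5*, on separate linear scales from 0, with sense reads in green and opposite-strand reads in yellow. *IBSP* stands at 53 and 51 reads in treated U2OS against 2 and 3 untreated, and nearly all *DLX5* reads come from the opposite strand. Counts by strand were made separately, and in untreated KO AID-DIvA they sum to 3 for *SP7* against 2 from either strand.

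Other genes of bone formation were counted from a list of 64 genes of transcription control, BMP signalling, matrix and mineralization, osteocytes, hormone receptors and osteoclast coupling. In U2OS 12 of 54 tested were called higher and 4 lower in WT, and 14 higher and 4 lower in KO, beside 18.6% and 20.3% of all genes called in either direction. The comparison of untreated U2OS genotypes tested 50 of the list, with 2 osteocyte genes instead of 4. The genes added here passed the low-count filter only with treated libraries in the fit, so higher calls of these were favoured in advance, as for *IBSP*. The list's median log2 fold changes were 0.18 and 0.087, against 0.0057 and 0.00085 over all genes, and without the first untreated WT replicate 12 were called higher and 3 lower in WT, as *FOSL1*, an AP-1 subunit gene, went from -1.06 to -0.96. By list, the calls in WT U2OS were 2 higher and 1 lower of 13 transcription factors and regulators, 2 and 2 of 15 BMP genes, 4 and 0 of 13 matrix and mineralization genes, 2 and 0 of 4 osteocyte genes and 2 and 1 of 9 in hormone receptors and osteoclast coupling. In AID-DIvA 2 of 50 were called higher and 1 lower in WT, and 2 of 52 higher and 2 lower in KO, beside 7.38% and 7.46% of all genes, which is near the background.

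Among the BMP ligands, *BMP6* rose from 1.47 ± 0.0884 to 17.8 ± 0.370 CPM in WT U2OS and *BMP2* from 5.88 ± 0.404 to 18.4 ± 0.587 CPM, changes of 3.59 ± 0.10 and 1.65 ± 0.09 on the log2 scale (adjusted p = 4.52e-07 and 6.16e-06). *NOG*, which encodes the BMP antagonist noggin, fell by 2.21 ± 0.21 on the log2 scale (adjusted p = 9.89e-05, and -1.93 without the first untreated replicate). In KO U2OS the log2 fold changes of these genes were 3.10, 1.44 and -2.15, all called. The 15 BMP genes did not move 1 way. In WT 2 were called higher and 2 lower, and by adjusted p alone 2 were higher and 5 lower, against 48.9% of all genes in either direction. In KO 3 were called higher and 2 lower, and by adjusted p alone 6 were higher and 8 lower, against 69.9%. After recovery in AID-DIvA, *BMP4* fell, with log2 fold changes of -2.06 ± 0.10 in WT and -1.03 ± 0.07 in KO (adjusted p = 7.07e-08 and 3.09e-06).

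Among the mineralization genes, *PHOSPHO1*, a phosphatase of matrix vesicles, rose from 1.80 ± 0.432 to 17.2 ± 0.843 CPM in WT U2OS (3.26 ± 0.17, adjusted p = 5.64e-06) and by 3.48 ± 0.11 in KO. *ENPP1* and *ANKH*, which supply extracellular pyrophosphate, an inhibitor of mineral growth, rose by 1.18 and 1.13 in WT and by 1.42 and 1.02 in KO. The regulators *DLX3* and *HEY1* rose by 3.10 and 2.15 in WT and by 3.22 and 2.89 in KO, and *LIF*, a cytokine of the IL-6 family, fell by 2.05 and 2.11. Without the first untreated WT replicate the WT log2 fold changes were 3.61 for *BMP6*, 1.68 for *BMP2*, 3.48 for *PHOSPHO1*, 1.17 for *ENPP1*, 1.05 for *ANKH*, 2.83 for *DLX3*, 2.17 for *HEY1* and -2.05 for *LIF*, all still called.

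In the chromosome 4 cluster of *DSPP*, *DMP1*, *IBSP*, *MEPE* and *SPP1* (hg19, chr4:88529681-88904562, plus strand), singled out here after its values were seen, 163744 bases lie between the end of *IBSP* and the start of *SPP1*. *DMP1*, a matrix protein of osteocytes, had summed counts of 4 in untreated and 55 in treated WT U2OS, and 2 and 127 in KO. *MEPE* had 1 and 4 reads in WT and 0 and 9 in KO, and *DSPP* had 12 and 6 in WT and 13 and 14 in KO. After recovery in AID-DIvA, *DMP1* had 7 and 4 reads in WT and 7 and 12 in KO. *FGF23*, the phosphate-regulating hormone of osteocytes on another chromosome, also named after its values were seen, had summed counts of 7 and 112 in WT U2OS and 5 and 162 in KO.

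**Figure D5:**
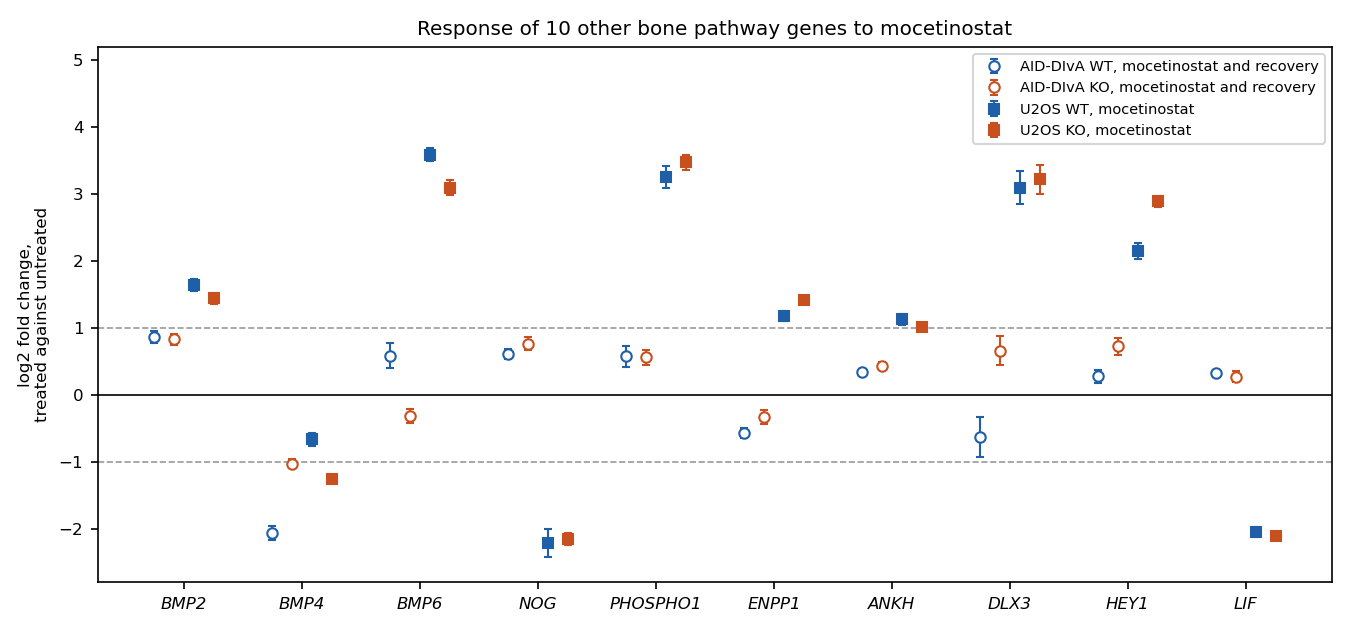
The y axis is the log2 fold change of treated against untreated cells for 10 other bone pathway genes, with error bars of ± 1 SE, open circles for AID-DIvA after drug and recovery and filled squares for U2OS after drug, in blue for WT and orange for KO. Dashed lines mark the fold threshold at 1 and -1. *BMP6* lies at 3.59 and 3.10 in U2OS and *PHOSPHO1* at 3.26 and 3.48, while both lie below 1 in AID-DIvA, and *NOG* and *LIF* fall past the lower threshold in U2OS only.

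In untreated cells the list of 64 held 5 genes called higher and 2 lower of 50 tested in KO AID-DIvA, and 1 higher and 2 lower of 50 in KO U2OS, beside 4.58% and 4.26% of all genes called in either direction. *RUNX3*, a relative of *RUNX2*, was at 5.70 ± 0.470 CPM in WT and 0.479 ± 0.140 CPM in KO AID-DIvA, and at 7.26 ± 0.482 and 0.578 ± 0.0706 CPM in U2OS. These log2 differences of -3.61 ± 0.15 and -3.65 ± 0.14 (adjusted p = 5.96e-11 and 1.36e-05) exceeded those of *RUNX2* itself. *LRP5*, a WNT co-receptor with a role in bone mass, was higher in KO by 1.15 in AID-DIvA and by 1.03 in U2OS, which became 0.97, short of the fold threshold, without the first WT replicate. *NOG* was called higher in KO AID-DIvA by 1.36 ± 0.08 (adjusted p = 6.00e-09). Without the first WT U2OS replicate it was also called in U2OS, higher in KO by 1.23 ± 0.05, and *RUNX3* stood at -3.70.

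Markers of other lineages were read beside the members. Of 24 markers of cartilage, fat, skeletal muscle, osteoclasts and blood, 7 of 14 tested were called higher in treated WT U2OS and 5 of 15 in KO, against 13.6% and 14.6% of all genes called higher, and none lower. The comparison of untreated U2OS genotypes tested 12 of these markers. The markers added passed the low-count filter only with treated libraries in the fit, so higher calls of these were favoured in advance. Without the first untreated WT replicate 6 of 15 were called higher in WT. Summed over their lists, the adipocyte markers lay at 16.9 to 19.6 CPM in untreated and 38.0 to 42.1 CPM in treated WT U2OS, and the chondrocyte markers at 113 to 124 and 109 to 114 CPM. The muscle markers summed to 6.47 to 8.54 CPM untreated and 9.20 to 10.6 CPM treated, with *DES*, encoding the filament protein desmin, higher by 3.83 ± 0.38 on the log2 scale (adjusted p = 0.000125, and 4.60 without the first untreated replicate) and the muscle-defining factors *MYOG* and *MYF5* at 0 reads. *MYOD1*, another such factor on the list, was not among the 2 muscle markers at 0 reads there. The fat hormone *ADIPOQ* was also at 0 reads in WT U2OS. The fat marker *PPARG* and the cartilage marker *ACAN* were called higher in WT, near the fold threshold, by 1.06 ± 0.09 and 1.05 ± 0.12 (adjusted p = 6.04e-05 and 0.000251). In KO U2OS *ACAN* was called higher by 1.01 ± 0.06. All 3 fat markers tested were called higher in WT U2OS, with a median log2 fold change of 1.43, and 1 of 3 in KO, with a median of 0.98. Osteoclast markers lay at 5.65 to 6.81 against 5.89 to 6.24 CPM, and blood markers stayed under 1 CPM in every library. In AID-DIvA 3 of 12 tested were called higher and 1 lower in WT, against 7.38% of all genes called in either direction, and 3 of 12 higher in KO, against 4.9% called higher. The part of these markers in the members' changes was not tested.

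By Pearson correlation of log2 CPM over the 24 libraries, the gene most like *MSX2* of 15587 searched was *PHOSPHO1* (r = 0.988). The nearest to *SPARC* was *PTP4A3* (0.975), to *SPP1* *MAOB* (0.972), to *ALPL* *SEPHS2* (0.967) and to *RUNX2* *CD27-AS1* (0.947). *TNFRSF11B* had no gene above 0.825, reached by *RAB17*. The 24 points form 8 groups of replicates and share libraries and scaling, so these values describe the groups' order.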

How the data were processed

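Total RNA of 24 libraries was sequenced in pairs on an Illumina NovaSeq after a stranded TruSeq preparation. Per the study's methods and processing notes, the authors used STAR, run by the Roddy workflow, to map reads to the hg19 (GRCh37) genome, and featureCounts to count them per gene; tool versions are not given in the sources used here, and the annotation version named there may not be that of the gene identifiers. The deposited values used here were raw counts from either strand, counts by strand, and TPM, which the authors computed from them. Counts from either strand were the main measure, so reads antisense to a gene count toward it. The strand split uses the deposited strand columns. RUNX2 overlaps SUPT3H and other transcripts in the annotation, and SPARC overlaps CTB-113P19.1. These lie on the opposite strand, except RNU6-515P within RUNX2. Opposite-strand reads made up 0.686% of those at RUNX2 and 0.0266% of those at SPARC, so only a small part may belong to the opposite-strand genes.

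Only the libraries compared entered each fit (all 24 for the difference between stages), with edgeR 4.0.16 in R 4.3.3: TMM factors, the default filterByExpr filter and a robust quasi-likelihood fit, whose p-values were adjusted by Benjamini-Hochberg across the genes tested. Calls needed an adjusted p under 0.05 and, between 2 groups, a log2 fold change beyond 1 in size. SE was the fold change over the square root of F. The code was tested on simulated data. Alternatives were DESeq2 1.42.0 as a test and for size factors, library totals, no filter, no fold threshold, reverse-strand counts, the replicate number as a block, wider fits and leaving out each of the 24 libraries. Library totals, and the gene lists without 1 library, were added after seeing the data. Replicates are described as biological, and the p-values measure the spread between them. Depth limits genes with few reads, for which exact 95% intervals and a floor of 3 counts over a group cover counting error only.

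All 9 members were named. Of each other list, up to 3 genes called in a comparison of 2 groups with a mean of at least 1 CPM and the largest changes were eligible, and the likeness search used log2(CPM + 0.5). The members and lists were chosen with earlier results of these data known. AID-DIvA libraries were grouped by title, against the treatment entry.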

Additional observations from a re-analysis of the deposited data

Results flagged for a closer look

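The changes that differed between groups by a test of the difference itself (edgeR, adjusted p under 0.05) are collected here as values. Between genotypes, the KO change exceeded the WT change by 0.53 for *RUNX2* and 1.21 for *TNFRSF11B* in AID-DIvA cells. In U2OS it exceeded the WT change by 0.56 for *RUNX2*, 0.71 for *SPP1* and 1.34 for *TNFRSF11B*. The *RUNX2* call in U2OS was lost in 11 of 12 fits that left out 1 library.

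Between the recovered AID-DIvA cells and the treated U2OS cells, the change in WT differed by 1.44 for *RUNX2*, 1.75 for *ALPL*, -0.86 for *SPP1*, 0.18 for *SPARC*, 1.43 for *DLX5*, -2.41 for *MSX2* and 0.95 for *TNFRSF11B*. In KO it differed by 1.41 for *RUNX2*, 1.37 for *ALPL*, -1.2 for *SPP1*, -1.95 for *MSX2* and 0.83 for *TNFRSF11B*. The WT calls of *SPARC* and *DLX5* were each lost in 7 of 24 fits that left out 1 library. The *DLX5* value rests on reads of the opposite strand, and stage and cell line cannot be told apart.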

How the results depend on the processing

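Among member results under the alternatives run, 1265 kept their direction and side of the threshold, 33 gained a call, 44 lost one and 16 changed sign. Without the low-count filter 1 member was called in WT AID-DIvA and 2 in KO AID-DIvA, against 5.36% and 5.44% of all genes. With no fold threshold the counts were 3 in WT AID-DIvA, 5 in KO AID-DIvA, 7 in KO U2OS, 5 in untreated AID-DIvA and 4 in untreated U2OS, against 46.9%, 40.1%, 69.9%, 36.7% and 15.2% of all genes, and with library totals untreated U2OS had 2, against 4.23%. The ranges on leaving out 1 library follow, with the share of all genes called in brackets. In AID-DIvA they were 0 to 1 in WT (7.51% to 7.68%) and 1 in KO (7.04% to 8.18%). In U2OS they were 3 to 6 in WT (16.7% to 19.9%) and 3 to 4 in KO (20.8% to 21.3%). Untreated AID-DIvA had 1 (4.53% to 5%) and untreated U2OS 1 to 2 (2.64% to 5.63%). The interaction had 2 in AID-DIvA (0.562% to 1.37%) and 2 to 4 in U2OS (1.1% to 9.03%). The stage difference had 5 to 7 in WT (40.3% to 47.1%) and 5 to 6 in KO (41.3% to 51.8%). The 2 extra U2OS calls without the first untreated WT replicate were *TNFRSF11B* between untreated genotypes and *MSX2* in the interaction, and *DLX5* then joined the KO stage calls. Without that replicate 5.63%, 9.03% and 51.8% of all genes were called in these comparisons, against 4.26%, 2.15% and 46% with it.

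Signs changed for *IBSP* in the WT stage difference with DESeq2, from 0.80 to -0.055. With 1 library left out, signs changed for *DLX5* in WT AID-DIvA (-0.25 to 0.20) and untreated AID-DIvA (-0.074 to 0.38), for *ALPL* and *MSX2* in the AID-DIvA interaction (-0.24 to 0.0071 and -0.015 to 0.19), and for *IBSP* in the U2OS interaction (-3.23 to 2.70), the WT stage difference (-1.75 to 1.39) and the KO stage difference (-3.06 to 1.94). None of these results was called, and *IBSP* has 0 to 3 untreated reads per group. The cause was not tested.

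The U2OS *RUNX2* interaction was lost with reverse-strand counts (adjusted p = 0.0589) and library totals (0.0751). The WT stage difference of *SPARC* was lost with DESeq2 size factors (0.0523) and without the filter (0.309), and with library totals, which moved the median of all genes there to -0.12, it was 0.07 (0.417). Deviations of same-numbered replicates had correlations of -0.44 to 0.31, with no shared sign. Without a reference for these values, they do not decide whether the numbers pair the libraries. With the replicate block 5 members were called in WT U2OS, against 17.8% of all genes. The U2OS interaction had 2, against 1.74%, and the WT stage difference 6, against 44.5%. In turn, *DLX5* (0.0585), *RUNX2* (0.069) and *SPARC* (0.0582) lost their calls in these comparisons.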
